A study of Mus musculus with 7 samples.

Results

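The enzymes and chaperones that modify and fold collagen in the endoplasmic reticulum (ER) are encoded by a small set of genes, 10 of which were compared between mouse embryonic fibroblasts (MEFs) and mouse embryonic stem cells (mESCs). The 10 genes, *Serpinh1*, *P4ha1*, *P4ha2*, *P4ha3*, *Plod1*, *Plod2*, *Plod3*, *P3h1*, *Crtap* and *Fkbp10*, were taken by symbol from a table of 55484 genes, and all 10 were present. Fibroblasts are the matrix-forming cells of connective tissue, here cultured from embryos, and embryonic stem cells are cultured cells that can still form every tissue. Both are labelled as C57/Bl6 background, and no treatment, age or further genotype is named for either. The study compared sequencing platforms for open chromatin in these cell types and used expression to rank candidate transcription factors. Expression was measured by 3′ biased RNA-seq in 4 MEF libraries and 3 of mESCs.

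A collagen chain is modified while it is still unfolded. Prolyl 4-hydroxylases turn prolines into the 4-hydroxyproline that keeps the triple helix stable at body temperature, prolyl 3-hydroxylase modifies a few further prolines, and lysyl hydroxylases prepare lysines for sugars and for crosslinks between molecules. Chaperones then hold the helix until it leaves the ER. Fibroblasts are a main source of collagen I and III, whereas early embryonic cells deposit collagen IV in basement membranes. Inherited loss of several of these enzymes and chaperones causes brittle bone disease.

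The libraries are called MEF-A to MEF-D and mESC-A to mESC-C, in the order of the deposited columns, since nothing ties a column's number to a sample's title. They held between 6528643 and 11441278 counts. Levels are given as CPM, counts divided by library size after scaling with TMM, a method that sets most genes equal between libraries. A floor of 3 counts corresponded to 0.262 to 0.460 CPM before this scaling, for counting error only, and the lowest count of the 10 genes was 21 (*Fkbp10* in mESC-B). The study's methods describe a sort for THY1+ fibroblasts and for THY1-/SSEA1+/EPCAM+ mESCs as input for the chromatin libraries, a gate that would remove THY1+ fibroblasts from mESCs. They do not say whether it was used for the RNA, which came from a data set the laboratory already had. The markers followed the labels. *Thy1*, a surface marker of fibroblasts, had 354 CPM in MEFs and 7.14 CPM in mESCs, *Epcam*, a marker of mESCs, had 11.5 and 258 CPM, and 8 of 8 pluripotency markers were higher and 8 of 8 fibroblast markers lower in mESCs. The extraction text of the labels speaks of blood stem cells. Of 8 markers of these, 0 of the 3 that could be tested differed, and their sum was 4.29 to 9.27 CPM in MEFs and 4.22 to 8.06 CPM in mESCs. Of 6 smooth muscle markers, which cultured fibroblasts also express, 5 were lower in mESCs, and of 6 endothelial markers 1 (*Pecam1*) was higher. Of 8 osteoblast and chondrocyte markers, 3 were lower and 1 higher in mESCs, with sums of 20.8 to 55.4 CPM in MEFs and 3.81 to 6.99 CPM in mESCs, while *Bglap* had 0 counts in every library.

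Of the 10 enzyme and chaperone genes, 9 were lower in mESCs, and 0 were higher. All 10 passed the filter on low counts. Among the 16580 genes tested, 25.0% were lower and 22.8% higher in mESCs at an adjusted p under 0.05 (edgeR quasi-likelihood), which is 4153 and 3785 genes. Without scaling beyond library size these were 3334 and 5205, and the same fit left 9 of the 10 lower. The median log2 fold change was -2.59 over the 10 genes and 0.04 over all genes tested. In 9 of the 10, every mESC library was below every MEF library, which held for 26.2% of all genes. *Plod1* was the exception to both. The choice of the 10 genes was made with results of these data known, so the count describes them and carries no test of its own. In bulk RNA, fewer cells that express a gene and less RNA in each cell cannot be told apart.

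**Figure D1:**
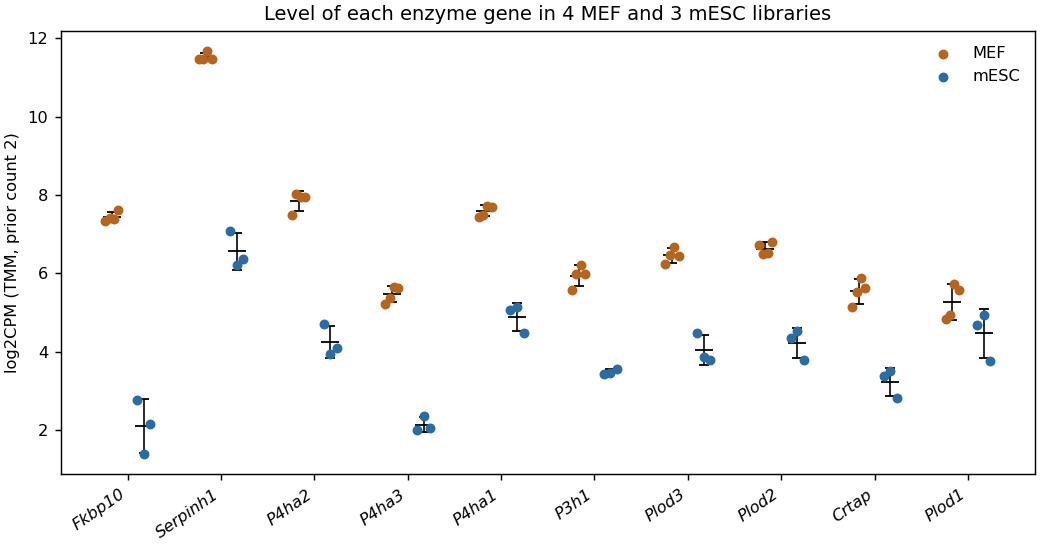
Level of each gene (vertical axis, log2CPM with TMM scaling and a prior count of 2) in the 4 MEF and 3 mESC libraries. Points are libraries, and bars give the mean and SD; the cell types separate for every gene except *Plod1*, whose mESC points reach into the MEF range.

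**Figure D2:**
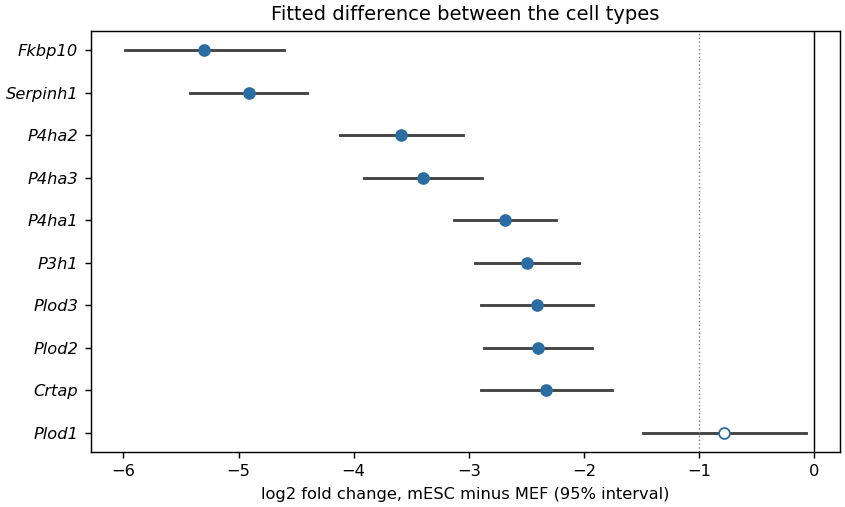
Fitted log2 fold change of mESCs minus MEFs (horizontal axis) with its 95% interval. Filled points passed an adjusted p of 0.05 and the open point (*Plod1*) did not; the dotted line marks a fold change of 2, and 9 intervals lie wholly beyond it.

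The fitted log2 fold changes fell into a sequence with few gaps. *Fkbp10* (-5.30) and *Serpinh1* (-4.91) fell most, and their 95% intervals overlapped each other. The interval of *Serpinh1* ended at -4.40, short of the interval of *P4ha2*, which began at -4.12. From *P4ha2* (-3.58) through *P4ha3* (-3.40), *P4ha1* (-2.69), *P3h1* (-2.49), *Plod3* (-2.41), *Plod2* (-2.4) and *Crtap* (-2.33), each interval overlapped that of the next gene. The interval of *Crtap* ended at -1.76, below that of *Plod1* (-1.49 to -0.07). Only 2.11% of all genes tested had a lower log2 fold change than *Fkbp10*, and 26.2% had a lower one than *Plod1*.

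**Figure D3:**
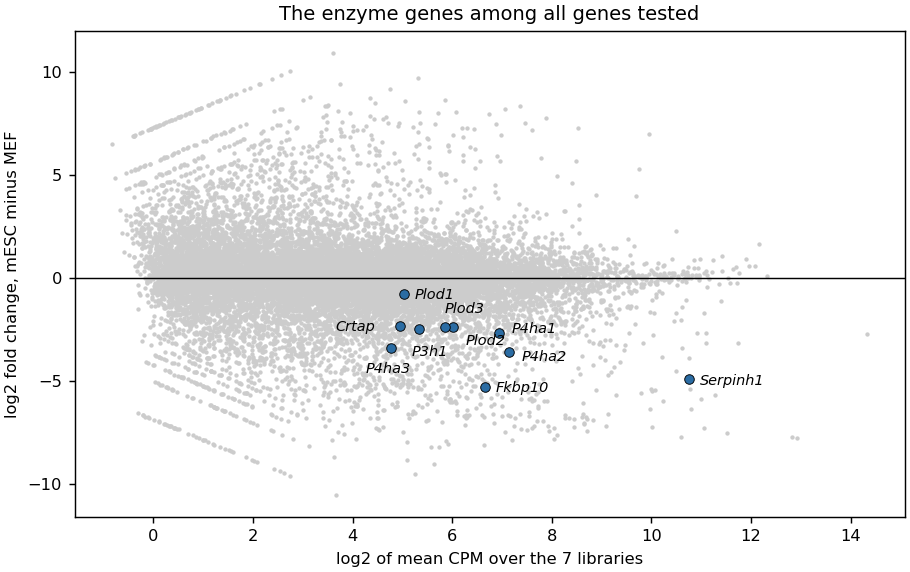
Log2 fold change of mESCs minus MEFs (vertical axis) against the log2 of mean CPM over the 7 libraries (horizontal axis) for all 16580 genes tested, in grey. The 10 enzyme genes are marked by name and all lie below 0, with *Fkbp10* and *Serpinh1* the lowest of them.

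The alpha subunits of prolyl 4-hydroxylase carry the catalytic site and exist in 3 forms, *P4ha1*, *P4ha2* and *P4ha3*. *P4ha1* (chromosome 10 of GRCm38, 59323296 to 59373304) had 174, 181, 212 and 207 CPM in MEF-A to MEF-D and 33.3, 34.9 and 22.1 CPM in mESC-A to mESC-C. *P4ha2* (chromosome 11, 54100095 to 54131665) had 179, 259, 245 and 248 CPM in the MEF libraries and 25.9, 15.2 and 16.95 CPM in the mESC libraries. Both were several times lower in each mESC library than in any MEF library. *P4ha3* (chromosome 7, 100285520 to 100319699) had 37.3, 41.2, 49.96 and 49.7 CPM in MEFs and 3.81, 4.91 and 3.91 CPM in mESCs. Thus mESCs kept 15.5% of the MEF level of *P4ha1*, 8.32% of *P4ha2* and 9.45% of *P4ha3*. The log2 fold changes were -2.69 ± 0.20 (SE) for *P4ha1*, -3.58 ± 0.24 for *P4ha2* and -3.40 ± 0.23 for *P4ha3*, with edgeR adjusted p-values of 1.98e-06, 9.03e-07 and 9.77e-07.

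The makeup of the family differed with cell type. *P4ha1* made up 44.6%, 37.6%, 41.8% and 41.1% of the family's counts in MEF-A to MEF-D and 52.9%, 63.5% and 51.4% in mESC-A to mESC-C. *P4ha2* made up 45.8%, 53.8%, 48.3% and 49.1% in MEFs and 41.1%, 27.6% and 39.5% in mESCs. Neither share overlapped between cell types, the first being larger and the second smaller in every mESC library. The exact (Clopper-Pearson) 95% interval of the *P4ha1* share was 43.1 to 46.2% in MEF-A, the highest MEF library. In mESC-C, the lowest mESC library, it was 46.1 to 56.6%, so these intervals touched. They cover counting error only and leave out the spread between libraries. *P4ha3* stayed a small part, with 8.56 to 9.85% in MEFs and 6.05 to 9.12% in mESCs, and its ranges overlapped. These shares were not tested, because they combine several of the chosen genes, and counts were not divided by transcript length, so only their change between cell types is read.

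**Figure D4:**
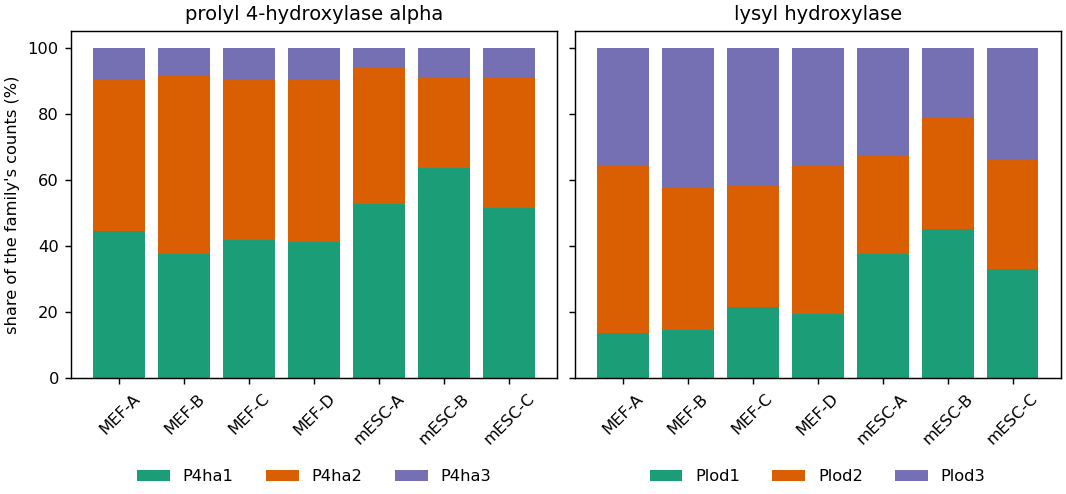
Share of each gene in the summed counts of its family (vertical axis, %) in the 7 libraries, for the prolyl 4-hydroxylase alpha subunits (left) and the lysyl hydroxylases (right). The *P4ha1* share is 37.6 to 44.6% in MEFs and 51.4 to 63.5% in mESCs, and the *Plod1* share is 13.6 to 21.5% and 33.0 to 45.3%.

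Promoter sequences are shown for *P4ha1* and *P4ha2*, the forms whose shares differed between the cell types, and for *Serpinh1*, the member with the largest fall for which a promoter was given. *P4ha1* and *P4ha2* are known targets of the hypoxia-inducible factors, which bind a core of ACGTG, and *Serpinh1* is known as a heat shock gene. The lines give the 250 bases before the RefSeq start on GRCm38.p6, 5′ to 3′ on the gene's strand, with ACGTG or its reverse complement in capitals.
P4ha1, chr10:59323046-59323295, plus strand: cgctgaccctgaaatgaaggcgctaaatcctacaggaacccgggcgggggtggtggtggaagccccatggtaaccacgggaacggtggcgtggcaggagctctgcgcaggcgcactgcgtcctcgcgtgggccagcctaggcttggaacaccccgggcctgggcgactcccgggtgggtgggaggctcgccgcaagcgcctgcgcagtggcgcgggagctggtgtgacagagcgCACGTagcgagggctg
P4ha2, chr11:54100674-54100923, plus strand: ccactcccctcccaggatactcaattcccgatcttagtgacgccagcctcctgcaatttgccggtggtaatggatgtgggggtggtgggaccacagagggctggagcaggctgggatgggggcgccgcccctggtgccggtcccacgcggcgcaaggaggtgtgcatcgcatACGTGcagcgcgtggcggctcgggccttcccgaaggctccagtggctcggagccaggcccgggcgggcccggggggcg
Serpinh1, chr7:99353240-99353489, minus strand: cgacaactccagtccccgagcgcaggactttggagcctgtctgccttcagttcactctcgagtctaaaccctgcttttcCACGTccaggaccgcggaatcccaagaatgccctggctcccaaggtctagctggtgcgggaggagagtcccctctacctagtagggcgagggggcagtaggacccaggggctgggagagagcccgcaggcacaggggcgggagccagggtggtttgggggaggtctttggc

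The table of promoters held 8 of the 10 genes with 9 starts, and not *Plod2* and *Fkbp10*. ACGTG stood on either strand in the promoters of 5 of these genes (*P4ha1*, *P4ha2*, *Serpinh1*, *Plod3* and the second start of *P3h1*), and in 16.6% of the 32851 promoters of all genes over the same 250 bases. In *P4ha1* it lay 16 to 12 bases before the start and in *P4ha2* 78 to 74 bases before it. The windows of *P4ha2* and of the second start of *P3h1* lie inside the span given here for the gene. Which starts these cells use was not tested. The E-box CACGTG was found in 0 of the 8 genes, so no match was part of one. The CCAAT box stood in the promoters of *P3h1* and *Plod3*, against 33.8% of all promoters. The heat shock core GAANNTTC was found in 0 of the 8 genes, *Serpinh1* included, and in 6.7% of all promoters. A match describes letters in this window and not a bound site.

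Prolyl 3-hydroxylase acts as a complex of the enzyme *P3h1*, the helper *Crtap* (cartilage-associated protein) and the proline isomerase *Ppib* (cyclophilin B). *P3h1* (chromosome 4, 119232915 to 119248975) had 47.8, 63.4, 74.4 and 62.6 CPM in MEF-A to MEF-D and 10.7, 10.7 and 11.6 CPM in mESC-A to mESC-C. *Crtap* (chromosome 9, 114375134 to 114390675) had 34.9, 46.1, 59.0 and 49.2 CPM in MEFs and 10.1, 11.2 and 6.88 CPM in mESCs. The partners fell to 17.7% of the MEF level for *P3h1* and 19.9% for *Crtap*. Their log2 fold changes were -2.49 ± 0.20 (SE, edgeR adjusted p = 3.74e-06) and -2.33 ± 0.26 (edgeR adjusted p = 3.24e-05), and their intervals overlapped. No library of one cell type reached the range of the other for either gene.

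*Ppib* could not be read in the same way. It had 45, 14, 18 and 30 counts in MEF-A to MEF-D and 25, 26 and 24 in mESC-A to mESC-C, and its ranges overlapped (edgeR adjusted p = 0.700). All of the last 500 annotated exon bases of *Ppib* overlap exons of *Snx22* on the opposite strand, where a 3′ biased library has its reads. The strand setting of the counting is not named, so the part this overlap has in the low counts was not tested. The last 500 exon bases of all 10 enzyme genes were free of such overlap, and in *Plod3*, the gene with most overlap elsewhere, 11.7% of exon bases lie opposite *Znhit1*. *P3h3*, a paralog that was not among the 10, held 29.1 to 42.5% of the counts of *P3h1*, *P3h2* and *P3h3* in MEF libraries and 38.1 to 53.3% in mESC libraries, ranges that overlapped.

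Lysyl hydroxylases have 3 forms. *Plod1* acts on lysines of the triple helix, *Plod2* on those of the short end regions (telopeptides) that form crosslinks, and *Plod3* also adds sugars. *Plod2* (chromosome 9, 92542223 to 92608428) had 106, 89.9, 91.3 and 112 CPM in MEF-A to MEF-D and 20.4, 22.7 and 13.5 CPM in mESC-A to mESC-C. *Plod3* (chromosome 5, 136987019 to 136996648) had 74.8, 89.0, 102 and 87.4 CPM in MEFs and 22, 14.3 and 13.6 CPM in mESCs. Both fell to about the same part of the MEF level, 18.9% for *Plod2* and 18.8% for *Plod3*. The log2 fold changes were -2.4 ± 0.21 (SE, edgeR adjusted p = 6.78e-06) for *Plod2* and -2.41 ± 0.22 (edgeR adjusted p = 8.65e-06) for *Plod3*.

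*Plod1* (chromosome 4, 147909753 to 147936767) kept the most of its level. It had 28.5, 30.3, 53.0 and 47.9 CPM in MEF-A to MEF-D and 25.6, 30.6 and 13.4 CPM in mESC-A to mESC-C. The level in mESC-B was above those in MEF-A and MEF-B, so the cell types overlapped, and mESCs kept 58.1% of the MEF mean. Its log2 fold change of -0.78 ± 0.32 (SE) missed the threshold (edgeR adjusted p = 0.0661), and the 95% interval of -1.49 to -0.07 still covers a fold change of 2. The threshold was passed with DESeq2 (adjusted p = 0.0470), with a filter of 1 count in total (0.00619), without MEF-A (0.0423) and without mESC-B (0.0417), and adjusted p-values over 13 alternatives ran from 0.00619 to 0.941, the last against a fold change of 2.

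Because *Plod1* kept more of its level than the other forms, its share of the lysyl hydroxylase counts was larger in mESCs. It was 13.6%, 14.5%, 21.5% and 19.4% in MEF-A to MEF-D and 37.7%, 45.3% and 33.0% in mESC-A to mESC-C. The share of *Plod2* was 50.6%, 43.0%, 37.0% and 45.2% in MEFs and 30.0%, 33.6% and 33.3% in mESCs. Neither share overlapped between the cell types. The exact 95% interval of the *Plod1* share was 19.7 to 23.3% in MEF-C and 28.1 to 38.3% in mESC-C, the libraries nearest to each other. These intervals cover counting error only and leave out the spread between libraries. *Plod3* ranged from 35.4 to 42.5% in MEFs and from 21.1 to 33.6% in mESCs, also without overlap. As for prolyl 4-hydroxylase, the shares are a description.

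*Serpinh1* and *Fkbp10* are the chaperones of the group. *Serpinh1* encodes Hsp47, which binds the folded triple helix in the ER and lets go of it in the Golgi, and *Fkbp10* encodes FKBP65, a proline isomerase that also acts together with the Plod2 protein. *Serpinh1* (chromosome 7, 99345376 to 99353239) had 2846, 2840, 3248 and 2841 CPM in MEF-A to MEF-D and 136, 74.3 and 83.0 CPM in mESC-A to mESC-C. *Fkbp10* (chromosome 11, 100415697 to 100424824) had 161, 170, 169 and 197 CPM in MEFs and 6.53, 2.397 and 4.27 CPM in mESCs. Both stood far apart between the cell types and close together within MEFs. The MEF mean was 30.1 times the mESC mean for *Serpinh1* and 39.6 times for *Fkbp10*, so mESCs kept 3.32% and 2.53%. The log2 fold changes were -4.91 ± 0.23 (SE, edgeR adjusted p = 8.01e-08) and -5.30 ± 0.31 (edgeR adjusted p = 3.63e-07). The *Fkbp10* counts in mESCs were 60, 21 and 36, and its coefficient of variation there was the largest of the 10, at 47.1%.

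The spread within a cell type differed from gene to gene. In MEFs the coefficient of variation ran from 6.89% (*Serpinh1*) to 30.9% (*Plod1*), and in mESCs from 4.82% (*P3h1*) to 47.1% (*Fkbp10*). It was larger in mESCs for 9 of the 10. Mean levels of all 10 were lower in mESCs, and lower counts raise counting error, whose part in this was not tested. The cell types also differ in their number of libraries. No share over all genes is given beside this count, so it is no result about the enzymes. MEF-C held the highest MEF level of 7 genes and MEF-A the lowest of 8. These counts, and those for the mESC libraries that follow, also stand without a share over all genes and are no result about the enzymes. MEF-C also had the most collagen, with 39900 CPM for 10 collagen chains against 22980 in MEF-A. Whether enzyme and collagen levels go together across MEF libraries was not tested. Among mESC libraries, mESC-B held the highest level of 5 genes (*Crtap*, *P4ha1*, *P4ha3*, *Plod1* and *Plod2*), mESC-A of 4 (*Serpinh1*, *Fkbp10*, *P4ha2* and *Plod3*) and mESC-C of 1 (*P3h1*). A list of 8 markers of parietal endoderm, a cell type that makes much collagen IV, summed to 115, 62.2 and 40.8 CPM in mESC-A to mESC-C and to 144 to 200 CPM in MEFs. Of these markers 2 were lower and 1 higher in mESCs, 1 did not pass and 4 had too few counts, and *Sox17* and *Foxa2* had 0 counts in every MEF library. Whether mESC-A held any such cells, and whether they had a part in its enzyme levels, was not tested. Nor was it stated whether the sort for SSEA1+/EPCAM+ cells preceded the RNA libraries. Without mESC-A the log2 fold change was -5.23 for *Serpinh1* and -5.71 for *Fkbp10*.

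The enzymes were set beside the chains they act on. Of 10 collagen chains, 9 were lower in mESCs and 1 (*Col18a1*) was higher, with a median log2 fold change of -6.66. Over all genes tested, 25.0% were lower and 22.8% higher. *Col1a1* fell from 12600 CPM to 59.7 CPM (log2 fold change -7.72) and *Col1a2* from 13480 to 60.9 CPM (-7.79), both chains of collagen I, the main fibrillar collagen of fibroblasts. The log2 fold changes of *Col3a1* (-7.73), *Col6a1* (-7.49), *Col5a2* (-6.67), *Col6a2* (-6.65) and *Col5a1* (-6.24) also passed. Each of these fitted changes was larger than that of any of the 10 enzyme genes. The intervals of *Col5a1* (-7.13 to -5.35) and *Col6a2* (-7.51 to -5.79) overlapped that of *Fkbp10* (-5.99 to -4.61). That of *Col5a1* also overlapped the interval of *Serpinh1* (-5.42 to -4.40), so these chains were not separated from all enzyme genes. The intervals of the other chains named so far lay wholly below that of *Fkbp10*. The basement membrane chains *Col4a2* (-3.67) and *Col4a1* (-2.95) fell less, which lies within the range of the enzymes. *Col18a1*, a basement membrane collagen, rose from 5.51 to 67.2 CPM, a log2 fold change of 3.62 (edgeR adjusted p = 1.54e-06).

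Relative to collagen I RNA, all 10 genes were higher in mESCs, with no overlap between the cell types. Only 0.24% of all genes tested had a lower log2 fold change than *Col1a1*, and 0.22% a lower one than *Col1a2*. Nearly every gene is therefore higher on this scale, and the direction is no result about the enzymes. Per 1000 CPM of *Col1a1* and *Col1a2* together, *Serpinh1* had 141, 119, 94.6 and 109 CPM in MEF-A to MEF-D and 1030, 630.2 and 742 CPM in mESC-A to mESC-C. *Fkbp10* had 7.98, 7.16, 4.91 and 7.57 CPM in MEFs and 49.5, 20.3 and 38.2 CPM in mESCs on this scale. The ratios were not tested, and they are read only between cell types because lengths were not taken into account.

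**Figure D5:**
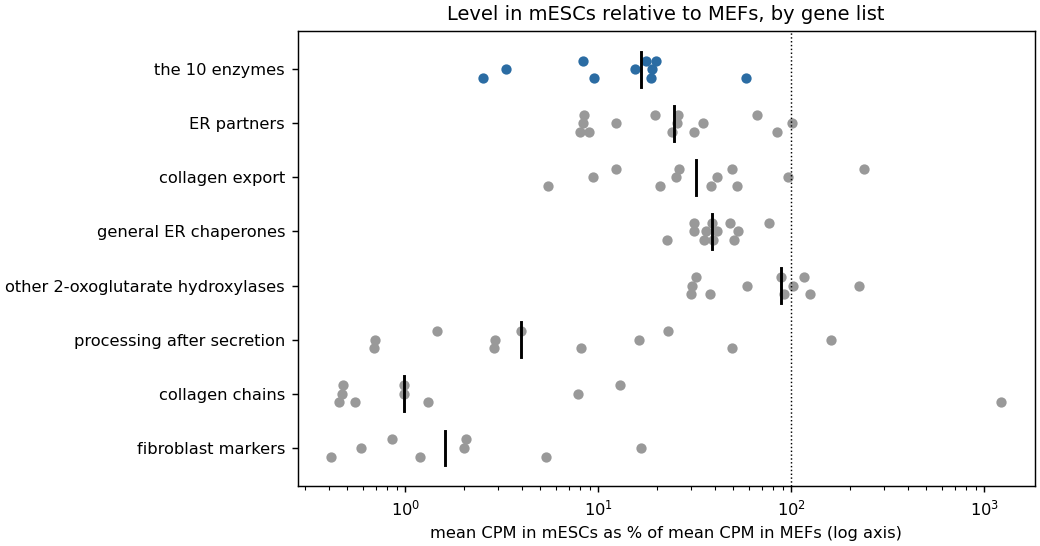
Mean CPM in mESCs as a percent of that in MEFs (horizontal log axis) for the 10 enzymes, in blue, and for the tested genes of 7 other lists, in grey. Short bars are list medians and the dotted line marks 100%; the enzymes have a median of 16.6%, between the general ER chaperones at 39.0% and the collagen chains at 0.98%.

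The enzymes were also set beside fibroblast markers. The 8 markers had between 0.41% (*Twist2*) and 16.6% (*Lum*) of their MEF level in mESCs, with a median of 1.602%, and summed to 1551 to 2295 CPM in MEFs and 35.4 to 39.6 CPM in mESCs. Within this range lay 5 of the 10 enzymes (*Fkbp10*, *Serpinh1* and the 3 prolyl 4-hydroxylase subunits, 2.53% to 15.5%), and the others lay above it, from 17.7% to 58.1%. *Lum* alone set the top of the range, and the next marker was *Pdgfra* at 5.35%. Of the enzymes, only *Fkbp10* (2.53%) and *Serpinh1* (3.32%) lay below *Pdgfra*. The marker sum was 38.55, 39.6 and 35.4 CPM in mESC-A to mESC-C. *Lum* was its largest part there, with 15.0, 17.1 and 11.85 CPM, so the sum does not weigh the 8 markers evenly. *Thy1*, the marker on which the sort of the chromatin samples removed fibroblasts, had 2.02% of its MEF level in mESCs. How much of the enzyme RNA in the mESC libraries comes from fibroblasts was not tested.

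Other parts of the same pathway were described with lists of genes. The counts of each list stand beside shares of 25.0% lower and 22.8% higher among all genes tested. Of 15 further ER partners of the enzymes, 14 were tested, 10 were lower in mESCs, 0 were higher and 4 did not pass, with a median log2 fold change of -2.01. *Fkbp7* (-3.64), a further ER isomerase, and *Rcn3* (-3.59), a calcium-binding ER protein, fell most. *P4hb*, the protein disulphide isomerase that forms the beta subunit of prolyl 4-hydroxylase and was named after its values were seen, had 537, 653, 570 and 616 CPM in MEF-A to MEF-D and 127, 118 and 105 CPM in mESC-A to mESC-C. Its log2 fold change was -2.35 ± 0.14 (SE, edgeR adjusted p = 3.74e-07), beside -2.69 for *P4ha1*. At the other end of the list were *Ppib* (-0.24) and *Tmem38b* (0.01), an ER ion channel, neither of which passed the threshold. The value of *Ppib* has the limits given above, its low counts and its overlap with *Snx22*.

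Export from the ER needs large vesicles. Of 12 genes for it, 10 were lower in mESCs, 1 was higher and 1 did not pass, with a median of -1.66. The largest falls were those of *Creb3l1* (-4.18), a transcription factor of secretory cells, and *Sec24d* (-3.42), a vesicle coat protein. *Klhl12*, an adaptor of the ubiquitin ligase that enlarges these vesicles, was the gene that rose (1.24, edgeR adjusted p = 8.99e-04), and it did not pass against a fold change of 2. *Mia2* (-0.06), a cargo receptor partner, did not pass.

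Of 12 genes that act after secretion, 11 were tested, 8 were lower and 0 higher in mESCs, with a median of -4.57. *Lox*, the enzyme that oxidises the hydroxylated lysines for crosslinks, fell from 944 to 6.49 CPM (-7.18). *Loxl4* had 19 to 59 counts in MEF libraries and 0, 1 and 0 in mESC-A to mESC-C. *Pcolce2* (0.68) and *Adamts14* (-1.01) did not pass with all libraries, and *Adamts14* passed without MEF-C (adjusted p = 0.0495). *Loxl2*, named after its values were seen, had 9.26, 294 and 15.5 CPM in mESC-A to mESC-C. Its log2 fold change was -2.12 (edgeR adjusted p = 0.0937) with all libraries and -5.23 without mESC-B (adjusted p = 1.05e-05), so 1 library decided this value.

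General ER chaperones, which serve all secreted proteins, fell less. Of 12, 10 were lower and 0 higher in mESCs, with a median of -1.36. They ranged from *Pdia4* (-2.14) and *Dnajc3* (-1.68) to *Canx* (-0.92), which passed, and *Uggt1* (-0.39), which did not. Of the 10 enzymes, 9 had fitted log2 fold changes below that of *Pdia4*, the exception being *Plod1*. The interval of *Pdia4* (-2.74 to -1.53) overlapped those of *P4ha1*, *P3h1*, *Plod3*, *Plod2* and *Crtap*, so these were not separated from it. The intervals of *Fkbp10*, *Serpinh1*, *P4ha2* and *P4ha3* lay wholly below it. Each list is given with its own values, and the difference between lists was not tested.

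The hydroxylases share their chemistry with other enzymes that use 2-oxoglutarate, oxygen and iron. Of 13 such genes outside the collagen pathway, 11 were tested, 4 were lower, 1 was higher and 6 did not pass. Their median was -0.18. Among all genes tested 25.0% were lower and 22.8% higher, and counts this small beside those shares are no result about this list. *Asph* (-1.72), an aspartyl hydroxylase of the ER, *Egln1* (-1.64) and *Egln2* (-1.39), the prolyl hydroxylases that act on hypoxia-inducible factors, and *Jmjd6* (-0.76) were the 4 that fell. *Phyh*, a peroxisomal hydroxylase, rose by 1.16 (edgeR adjusted p = 0.0196), a call that was lost without MEF-A (adjusted p = 0.0502) and without mESC-A (0.0571). *P4htm* (-1.73), an ER membrane prolyl hydroxylase, had the lowest value but missed the threshold (adjusted p = 0.119) and passed it without MEF-B (0.0454). MEF-C decided its value, which was -0.19 without that library. *Riox1* (0.33) did not pass.

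Since *P4ha1*, *P4ha2* and *Plod2* are known hypoxia targets, 12 other genes of that response were described too. Of these, 3 were lower, 2 higher and 7 not past the threshold, with a median of -0.34, which is near the shares of 25.0% lower and 22.8% higher among all genes tested and is no result about this list. *Adm*, which encodes the peptide adrenomedullin, fell from 48.2 to 1.61 CPM (-4.90), and the glycolytic gene *Ldha* (-1.69) and the growth factor gene *Vegfa* (-1.12) fell as well. *Kdm3a* (1.67), a histone demethylase, and *Pdk1* (1.21), a kinase that limits pyruvate oxidation, rose. The part of hypoxia signalling in the levels of *P4ha1*, *P4ha2* and *Plod2* was not tested.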

How the data were processed

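RNA-seq counts of 4 MEF and 3 mESC libraries were analysed. Reads were demultiplexed, trimmed and mapped by the authors (STAR, mm10), duplicates were removed by molecular identifier (Je), and the deposited values are counts of uniquely mapped reads on exons (featureCounts), as whole numbers without normalization. The processing notes name STAR 2.4.2a, whereas the study's methods name a later version. The annotation release and strand setting are not given in the sources used here. The number of unused sample columns was 0. Symbols in the form of dates (26 rows, 0.25% of counts) stayed in the totals.

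Counts were fitted across all 7 libraries with edgeR 4.0.16 (R 4.3.3), using TMM, filterByExpr and the quasi-likelihood test without covariates. P-values were adjusted by Benjamini-Hochberg over all 16580 genes tested, with a threshold of 0.05. The study's captions describe 3 biological replicates per cell type, while the table holds 4 MEF columns, and no source says which of these come from separate cultures. P-values measure the spread between these libraries. log2CPM used a prior count of 2. Pairs of libraries within a cell type differed by more than counting error (chi-square of 15.6 to 31.1 per degree of freedom). Among MEFs it was 15.8 for MEF-A with MEF-B, 20.1 for MEF-C with MEF-D, and 26.2 to 31.1 for the other pairs. Whether the MEF libraries are all independent of each other was not tested. DESeq2 1.42.0 served as an alternative. On simulated data with the same variability set for every gene, edgeR recovered 185 of 200 genes changed by 2 on the log2 scale among 16161, with 5 false calls. In the real data 7938 of 16580 genes were called, so the simulation does not check the scaling where many genes change.

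The members and gene lists were chosen with earlier results of these data known. Genes named are the 10 members, the collagen chains, the sort markers, and in each list the pair with the highest and the pair with the lowest log2 fold change and any direction with 5 or fewer calls. *Fut4*, a sort marker with 3 to 13 counts, was too low to test. Positions and overlaps are from GENCODE M21 on GRCm38, and promoters from RefSeq. Protein sequences were not analysed here.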

Additional observations from a re-analysis of the deposited data

Results flagged for a closer look

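In *Serpinh1*, MEF-C stood apart from the other MEF libraries with 11.67 log2CPM against 11.47 to 11.48, a gap that took up 0.983 of the range of the 4 libraries. In *P4ha2*, MEF-A stood apart below the others with 7.48 log2CPM against 7.94 to 8.02 (0.853 of the range). Both exceed Dixon's 95% limit for 4 values. Of 29 sets of MEF values examined (the 10 enzymes, 10 collagen chains and 9 shares within families), 2 passed this limit, where chance gives 1.45. Both genes were lower in mESCs with and without these libraries.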

How the results depend on the processing

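No paired analysis was possible because no source ties a column's number to a sample's title. Testing against a fold change of 2 left 3991 of 7938 genes, by construction of a stricter test, and 9 of the 10 enzyme genes. Without scaling beyond library size, 3334 genes were lower and 5205 higher in mESCs in place of 4153 and 3785, and the median of all genes moved from 0.04 to 0.32. The 9 enzyme genes were lower in mESCs and past the threshold in each of 13 alternatives, with the smallest fall for *Crtap* (-2.05) and the largest for *Fkbp10* (-5.71). For the 52 named genes, 28 of 676 values differed in call or direction: 9 lost a call, 10 gained one and 9 turned sign. *Mia2* turned to 0.22 and *Ppib* to 0.034 without scaling. *Tmem38b* turned to -0.028 with a filter of 1 count and to -0.018 with one of 10 counts in every library of a cell type. Leaving out each library in turn gave -0.22 to 0.028 for *Mia2* and -0.23 to 0.24 for *Tmem38b*. None of these 3 passed the threshold with all libraries, and the cause was not tested. Of 72 values for shares 2 moved by more than the spread, both for *Plod2* (a difference of -11.7 percentage points, -9.43 without MEF-A and -13.96 without MEF-C). Counts were low for *Fkbp10* in mESCs and for *Ppib* in all libraries, and the part of depth in this was not tested.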
